A study of Homo sapiens with 9 samples.

Results

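S100 proteins and annexins are the calcium-binding families examined here, in human embryonic kidney HEK293 cells that carried wild-type or mutated MEK1. The members were all array probes whose gene name began with S100 followed by a letter, leaving out S100PBP, or with ANXA followed by a digit. This gave 46 of 50598 probes, for 37 genes. They comprised 21 S100 genes, 13 annexins, the ANXA2 pseudogenes ANXA2P1 and ANXA2P3, and ANXA2R, which is a receptor for annexin A2 and shares only the letters of the name. Their signal was compared between a WT line, expressing hemagglutinin-tagged (HA) MEK1, an F53S line, expressing the MEK1 mutant F53S found in RASopathies, and a K57N line, expressing the MEK1 mutant K57N found in cancers. MEK1 is the kinase that phosphorylates and activates ERK. All lines were made from HEK293 cells by transfecting the expression plasmid and selecting with puromycin, all keep their endogenous MEK1, and RNA was taken at steady state, without a stimulus. The source names of 2 WT samples give other cell line numbers, whereas their titles and cell line entries say HEK293. Each line was measured on 3 one-colour Agilent arrays, 9 in all. Each MEK1 form is represented by 1 stable line, and whether it is a clone or a pool is not given in the sources used here, so the mutation and the history of the line cannot be told apart.

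S100 proteins are small EF-hand proteins that change shape when they bind calcium and then attach to target proteins. Some are also secreted and act on receptors such as RAGE (gene AGER) and TLR4. Annexins bind acidic phospholipids in the presence of calcium and act in membrane repair, vesicle traffic and the organisation of the cell cortex. The families meet in complexes such as annexin A2 with S100A10 and annexin A1 with S100A11. Most S100 genes lie side by side on the long arm of chromosome 1, whereas the annexin genes are scattered over many chromosomes.

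The sequences shown here are the 250 bases before the annotated starts of the genes called higher in the K57N than the WT line in the fits described further on, because these stretches can hold sites for the transcription factors that ERK signalling acts on. They come from RefSeq on GRCh38.p14, are written 5′ to 3′ on the strand of the gene, and stop before the transcribed bases. Capitals mark the letters of the AP-1 motif TGANTCA, the ETS motif CCGGAA, the EGR1 motif GCGNGGGCG or the SP1 motif GGGCGG, searched on both strands. S100A16 has 2 annotated starts, both shown, and S100A13 has 3, of which the outermost is shown. S100A2 and S100A3 are included because AP-1 letters occur there.
S100A16, outer start, chr1:153613138-153613387, minus strand: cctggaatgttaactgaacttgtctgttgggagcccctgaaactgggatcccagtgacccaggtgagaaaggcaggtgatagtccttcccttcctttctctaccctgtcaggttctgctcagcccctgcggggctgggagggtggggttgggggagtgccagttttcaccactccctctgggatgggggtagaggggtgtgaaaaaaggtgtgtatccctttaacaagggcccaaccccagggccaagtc
S100A16, inner start, chr1:153609356-153609605, minus strand: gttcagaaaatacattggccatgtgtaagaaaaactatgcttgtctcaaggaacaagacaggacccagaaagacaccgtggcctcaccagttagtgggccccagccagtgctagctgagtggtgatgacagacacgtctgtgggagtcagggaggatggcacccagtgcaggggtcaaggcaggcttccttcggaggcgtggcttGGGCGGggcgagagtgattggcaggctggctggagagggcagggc
S100P, chr4:6693628-6693877, plus strand: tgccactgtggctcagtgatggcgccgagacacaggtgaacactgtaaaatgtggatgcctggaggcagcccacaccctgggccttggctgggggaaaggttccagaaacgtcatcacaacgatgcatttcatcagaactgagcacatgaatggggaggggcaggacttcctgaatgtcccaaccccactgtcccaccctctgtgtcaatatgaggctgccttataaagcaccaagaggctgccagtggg
S100A13, outermost start, chr1:153634362-153634611, minus strand: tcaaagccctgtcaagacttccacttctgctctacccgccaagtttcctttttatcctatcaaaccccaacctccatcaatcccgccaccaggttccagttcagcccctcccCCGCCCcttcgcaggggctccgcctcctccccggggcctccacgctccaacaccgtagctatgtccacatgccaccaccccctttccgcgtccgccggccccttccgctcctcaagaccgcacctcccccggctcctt
ANXA1, chr9:73151615-73151864, plus strand: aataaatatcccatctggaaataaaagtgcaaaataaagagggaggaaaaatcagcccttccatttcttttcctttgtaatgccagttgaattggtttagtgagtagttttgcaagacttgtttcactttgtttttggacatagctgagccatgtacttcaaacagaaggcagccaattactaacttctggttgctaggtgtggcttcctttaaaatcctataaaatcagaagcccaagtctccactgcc
S100A2, outer start, chr1:153565845-153566094, minus strand: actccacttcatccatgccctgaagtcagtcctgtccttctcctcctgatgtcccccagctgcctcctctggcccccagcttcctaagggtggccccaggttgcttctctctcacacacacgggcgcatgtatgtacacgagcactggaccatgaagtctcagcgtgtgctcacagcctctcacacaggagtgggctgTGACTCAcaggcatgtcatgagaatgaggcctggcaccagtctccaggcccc
S100A3, chr1:153549259-153549508, minus strand: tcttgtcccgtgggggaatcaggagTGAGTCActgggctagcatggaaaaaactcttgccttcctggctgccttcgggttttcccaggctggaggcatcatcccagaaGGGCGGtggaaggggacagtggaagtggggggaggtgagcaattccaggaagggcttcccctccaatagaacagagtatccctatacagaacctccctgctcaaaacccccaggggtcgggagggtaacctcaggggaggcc

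In these windows the promoters of S100A16, S100P, S100A13 and ANXA1 held no AP-1, ETS or EGR1 letters. SP1 letters stood 45 bases before the inner start of S100A16 and 138 bases before the outermost start of S100A13. AP-1 letters stood 52 bases before the outer start of S100A2 and 225 bases before the start of S100A3. They also occurred in the windows of ANXA2, S100A5 and S100A12, which makes 5 of the 30 member genes with a sequence in the table. Counted over starts, AP-1 letters were in 5 of 42 member windows against 6.57% of all 35116 windows, ETS letters in 6 of 42 against 14.5%, EGR1 letters in 1 of 42 against 8.42%, and SP1 letters in 14 of 42 against 42.6%. Such a match describes letters and shows no binding.

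Signal is given throughout as log2 of the processed signal minus the 75th percentile of its array, so that 0 is the 75th percentile. These values differed between the replicate on slide 1 and those on slide 2, and slide and replicate cannot be told apart. Replicate 1 of every line was on slide 1, where the 75th percentile of signal was 245 to 376 units, and replicates 2 and 3 were on slide 2, where it was 695 to 821. Among the tested member genes, the slide 1 value differed from the mean of the slide 2 values of the same line by a median of 0.56, and by more than 1 in 18 of 72 gene-by-line values. The slide 2 arrays of a line differed from each other by a median of 0.07. The plain fit of line means is therefore given beside the same fit with slide as a term, and values within each slide are given for the genes the results turn on. A gene was called when its Benjamini-Hochberg adjusted p in limma, over all tested probes, was below 0.05 and its difference exceeded 2-fold (1 on the log2 scale). A gene was tested when its probe was well above background, by the scanner software's test, on all 3 arrays of at least 1 line, which left 24 of the 37 member genes. These were 10 S100 genes, 11 annexins, both pseudogenes and ANXA2R.

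The first question was which S100 and annexin genes differed between the cancer-type K57N line and the WT line. In the plain fit 1 of the 24 tested genes, S100A16, was called higher in K57N and none lower. Over all 19276 tested genes, 1.52% were called higher and 0.742% lower in this fit. With slide as a term, 4 members were called higher, S100A16, S100P, S100A13 and ANXA1, and none lower, against 2.57% and 1.97% of all genes. With the replicate number, which contains the slide difference, as a block in place of slide, the same 4 genes were called. Irrespective of fold, 7 members were higher and 3 lower with adjusted p below 0.05 with slide as a term, against 8.56% and 10.8% of all tested genes. The median difference was 0.69 over the 10 S100 genes, of which 7 were above 0 (0.61, with 6 of 9 above 0, without S100A1, which entered the test only through K57N), and -0.18 over the 11 annexins, of which 4 were above 0. The median over all tested genes was -0.06.

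S100A16 encodes a widely expressed member of the family and lies on chromosome 1 (hg19 probe position 153579675 to 153579734, minus strand). Its log2 signal was 0.72, 0.42 and 0.30 in WT replicates 1 to 3, 1.0, 0.54 and 0.47 in F53S, and 2.51, 2.24 and 2.28 in K57N. All 3 K57N arrays lay above all WT and F53S arrays, on both slides. The log2 difference of K57N from WT was 1.86 ± 0.20 (SE, n = 3 per line), or 3.64-fold, with adjusted p = 0.00263 in the plain fit and 2.2e-05 with slide as a term. It was 1.79 on slide 1 and 1.90 on slide 2. The call was kept whichever of the 9 arrays was left out, with a largest adjusted p of 0.0208.

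S100P, the second S100 gene called, encodes a protein first described in placenta and known as a secreted ligand of RAGE, and lies outside the cluster, on chromosome 4 (hg19 6698819 to 6698878, plus strand). Its log2 signal was -2.70, -3.88 and -3.87 in WT, -1.96, -3.11 and -3.42 in F53S, and -0.92, -1.95 and -1.69 in K57N. Each slide 1 array lay above the slide 2 arrays of its line, and the K57N arrays lay above all WT arrays. The difference of K57N from WT was 1.96 ± 0.48 (SE), or 3.90-fold. Its adjusted p was 0.084 in the plain fit, 1.27e-04 with slide as a term and 6.08e-04 with the replicate block. The difference was 1.78 on slide 1 and 2.06 on slide 2.

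S100A13, which takes part in the release of fibroblast growth factor 1 from cells, lies next to S100A14 in the cluster (hg19 153591285 to 153591344, minus strand). Its log2 signal was 5.76, 4.70 and 4.65 in WT, 5.90, 4.79 and 4.77 in F53S, and 6.40, 5.92 and 6.0 in K57N. The K57N arrays were again above all others, but the gap was smaller on slide 1, where it was 0.64, than on slide 2, where it was 1.28. The overall difference was 1.07 ± 0.39 (SE), or 2.10-fold, with adjusted p = 0.267 in the plain fit, 0.00346 with slide as a term and 0.00904 with the replicate block. The call with slide as a term was lost without K57N replicate 3, at a difference of 0.97.

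No other tested S100 gene of the cluster was called in either fit. S100A1, best known from heart and skeletal muscle, gave a dim probe, which passed the background test on 2 arrays of WT, 1 of F53S and 3 of K57N. Its signal was -5.88, -5.15 and -4.28 in WT, -5.37, -5.32 and -5.31 in F53S, and -3.65, -4.39 and -4.03 in K57N. WT and K57N overlapped, since WT replicate 3 lay above K57N replicate 2, and the difference of 1.08 ± 0.37 (SE) did not pass the test (adjusted p = 0.228 plain, 0.078 with slide as a term). It was 2.23 on slide 1, where the WT array did not pass the background test, and 0.51 on slide 2. The second S100A1 probe was well above background on a single array, of F53S.

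S100A3 and S100A2, the latter known from epithelial basal cells and as a p53-related gene, had adjusted p below 0.05 with slide as a term while staying under 2-fold. S100A3 was -0.95, -1.71 and -1.65 in WT and -0.52, -0.65 and -0.82 in K57N, a difference of 0.77 (adjusted p = 0.204 plain, 0.00649 with slide). S100A2 was 0.07, -0.80 and -0.86 in WT and 0.32, -0.06 and -0.04 in K57N, a difference of 0.61 (adjusted p = 0.482 plain, 0.0141 with slide). K57N exceeded WT on both slides for each gene, by 0.42 and 0.95 for S100A3 and by 0.25 and 0.78 for S100A2, on slides 1 and 2.

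S100A4, linked to cell motility, and S100A5 stood apart from these. S100A4 was 1.68, 0.62 and 0.50 in WT and 0.52, 0.37 and 0.45 in K57N, and its difference of -0.48 (adjusted p = 0.736 plain, 0.147 with slide) was -1.15 on slide 1 and -0.15 on slide 2. S100A5 was 0.46, -1.82 and -1.27 in WT and -0.66, -1.48 and -1.01 in K57N, so that K57N was lower by 1.12 on slide 1 and higher by 0.30 on slide 2. No direction can be given for S100A5. S100A10 and S100A11, the partners of annexins A2 and A1, differed from WT by -0.29 and 0.19, with adjusted p of 0.832 and 0.97 in the plain fit and 0.186 and 0.44 with slide as a term. The S100A10 difference was -0.65 on slide 1 and -0.11 on slide 2. The S100A11 difference was -0.18 on slide 1 and 0.38 on slide 2, so no direction is given for S100A11.

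Of the 9 tested genes of the cluster, 7 lie in one stretch of it, and S100A10 and S100A11, whose values are given above, lie at its other end. In the order of their hg19 positions, S100A5, S100A4, S100A3, S100A2, S100A16, S100A13 and S100A1 differed from WT by -0.17, -0.48, 0.77, 0.61, 1.86, 1.07 and 1.08, the last from the dim S100A1 probe, which entered the test only through K57N, with the untested S100A14 between S100A16 and S100A13. In the RefSeq annotation, S100A1 lies within the span of S100A13, on the other strand. The 7 tested genes that are not S100 genes within 250 kb of the stretch from S100A16 to S100A1 (CHTOP, SNAPIN, ILF2, NPR1, INTS3, SLC27A3 and GATAD2B) differed by -0.71 to 0.15, with a median of -0.31. All of them lie beyond S100A1, so the side of S100A16 is not covered. None of these 7 was called in either fit, and 2 were lower with adjusted p below 0.05 with slide as a term, against 10.8% of all tested genes.

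Among the annexins, ANXA1 was the one called higher in K57N with slide as a term. Annexin A1 is a glucocorticoid-induced, anti-inflammatory protein that signals through formyl peptide receptors when secreted. Its signal (hg19 chromosome 9, 75785002 to 75785061, plus strand) was 3.62, 5.29 and 5.16 in WT, 4.01, 5.61 and 5.62 in F53S, and 5.12, 6.15 and 6.21 in K57N. The slide 1 array was the lowest of each line, so the lines overlapped over all arrays but not within a slide. The difference of K57N from WT was 1.14 ± 0.59 (SE), or 2.20-fold, being 1.5 on slide 1 and 0.96 on slide 2. The adjusted p was 0.499 in the plain fit, 0.00153 with slide as a term and 0.00469 with the replicate block. Without WT replicate 1 the plain difference was 0.60, and the call with slide as a term was lost without K57N replicate 1, at a difference of 0.96.

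ANXA3, ANXA9 and ANXA4 were lower in K57N with adjusted p below 0.05 with slide as a term, all under 2-fold. With the replicate block this held for ANXA3 (adjusted p = 0.0226) and ANXA9 (0.0412) but not for ANXA4 (0.0904). ANXA3 was -0.90, 0.64 and 0.44 in WT, -0.80, 0.32 and 0.38 in F53S, and -1.24, -0.62 and -0.61 in K57N. Its difference of -0.89 ± 0.47 (SE; adjusted p = 0.513 plain, 0.0108 with slide) was -0.34 on slide 1 and -1.16 on slide 2. On the slide 2 arrays alone ANXA3 was called lower (adjusted p = 0.00479), while ANXA9 (0.0738) and ANXA4 (0.0615) did not pass 0.05. ANXA9, an atypical annexin, differed by -0.59 (adjusted p = 0.8 plain, 0.023 with slide), by -0.98 on slide 1 and -0.40 on slide 2. Without WT replicate 1 its difference was -0.09 in the plain fit and -0.45 in the fit with slide (adjusted p = 0.106). ANXA4, an annexin of epithelial secretory cells, differed by -0.30 (0.648 plain, 0.049 with slide), by -0.37 on slide 1 and -0.26 on slide 2.

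None of the remaining annexins, each taken as its brightest probe, had adjusted p below 0.05 in either fit. ANXA2, which binds plasminogen and tissue plasminogen activator at the cell surface, was 5.78, 5.58 and 5.68 in WT and 6.01, 5.81 and 5.89 in K57N. These arrays did not overlap, yet the difference of 0.22 had an adjusted p of 0.703 plain and 0.117 with slide as a term. ANXA5, whose protein binds exposed phosphatidylserine, differed by 0.05, with a 95% interval of -0.15 to 0.26 with slide as a term. ANXA6, ANXA7, ANXA8, ANXA8L2 and ANXA11 differed by -0.32 to 0.16, with adjusted p of 0.0792 or more with slide as a term.

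Other probes of the same gene gave like values for S100A11 (0.22 and 0.19) and ANXA7 (0.08 and 0.16), but not for ANXA11. The ANXA2 probes differed by 0.22 and 0.13, the first by 0.23 on slide 1 and 0.22 on slide 2, the second by 0.59 on slide 1 and -0.10 on slide 2. The brightest ANXA11 probe differed by -0.11, and its other probes by 0.36 (adjusted p = 0.0409 with slide) and -0.83 (adjusted p = 0.0213 with slide), so the ANXA11 probes disagreed in sign. ANXA2P1 differed by 0.32 and ANXA2P3 by 0.09. Their probes resemble ANXA2 transcripts, and the share of signal from ANXA2 itself was not tested. ANXA8 and ANXA8L2 are likewise near-identical copies, and their signals may mix. ANXA2R was 1.25, 0.69 and 0.70 in WT and 1.65, 1.08 and 1.06 in K57N, a difference of 0.38 (adjusted p = 0.662 plain, 0.0135 with slide).

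The second question was whether the RASopathy-type F53S line differed from WT in these genes. No member was called in limma in the plain fit or with slide as a term, and 0% of all tested genes were called higher or lower in the plain fit, and 0% higher or lower with slide as a term. The number of members with unadjusted p below 0.05 was 0 in the plain fit and 2 with slide as a term, S100P and ANXA1, against 0.903% and 4.09% of all tested genes, and the methods' t-test called none at unadjusted p below 0.05 and 2-fold. S100P differed from WT by 0.65, with a 95% interval of 0.34 to 0.97 and an adjusted p of 0.419 with slide as a term. F53S was higher than WT in 3 of 3 same-numbered pairs of arrays, by 0.74 on slide 1 and 0.61 on slide 2. ANXA1 differed by 0.39, with an interval of 0.08 to 0.70, and was also higher in 3 of 3 pairs. In the plain fit with single arrays left out, the difference ran from 0.22 to 1.05 for S100P and from -0.14 to 0.93 for ANXA1.

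Next came S100A11 at 0.25 and ANXA8L2 at -0.20, each with an interval that included 0 with slide as a term. The S100A1 value was -0.23, from a probe that passed the background test on 2 arrays of WT and 1 of F53S, and is not set against the others. For S100A16 the F53S difference was 0.19, with an interval of -0.02 to 0.40, which leaves out the 1.86 seen in K57N. For S100A13 it was 0.12, with an interval of -0.23 to 0.47. In all 24 genes the F53S arrays overlapped the WT arrays over both slides. Within same-numbered pairs, S100A11 (0.16 to 0.41), S100A16 (0.12 to 0.28), ANXA4 (0.14 to 0.23), S100A13 (0.09 to 0.14) and ANXA11 (0.01 to 0.07) were also higher in F53S in 3 of 3 pairs, and ANXA2R was lower in 3 of 3 (-0.10 to -0.04), none passing the adjusted test. The shares of all tested genes that overlapped, or kept the same direction in 3 of 3 pairs, were not computed. No shift of the members is therefore read from these pairs.

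The third comparison set the mutants against each other. It shares the K57N arrays with the first comparison, so the values are given side by side and are no separate support. S100A16 was called higher in K57N than F53S in the plain fit, by 1.67 ± 0.20 (SE), or 3.19-fold, with adjusted p = 0.0084, and it was the only member called. With slide as a term its adjusted p was 7.1e-05, and S100P was called as well, by 1.31, with adjusted p = 0.364 in the plain fit, 0.00135 with slide and 0.00449 with the replicate block. No member was called lower. Over all genes, 0.96% were called higher and 0.249% lower in the plain fit, and 1.89% higher and 1.11% lower with slide as a term. Leaving out F53S replicate 2 or F53S replicate 3 moved the S100A16 adjusted p to 0.051 and 0.0538, past the threshold.

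Other members are given with their values. S100A13 was 0.95 higher in K57N than F53S (adjusted p = 0.455 plain, 0.00832 with slide), 0.50 on slide 1 and 1.17 on slide 2. The dim S100A1 probe did not pass the test (0.208 plain, 0.0547 with slide). The ANXA1 difference was 0.75 (0.858 plain, 0.0129 with slide), 1.11 on slide 1 and 0.57 on slide 2. Without F53S replicate 1 it was 0.21 in the plain fit and 0.66 in the fit with slide (adjusted p = 0.0678). The ANXA3 difference was -0.79 (0.709 plain, 0.023 with slide). Irrespective of fold, 7 members were higher and 3 lower with adjusted p below 0.05 with slide as a term, against 5.83% and 7.54% of all tested genes. With the replicate block 7 were higher and 2 lower, without ANXA9 (adjusted p = 0.0685).

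Of 23 listed partners and receptors of S100 proteins and annexins, 16 were tested. In K57N against WT, 2 were called higher and 1 lower in the plain fit, and 3 higher and 1 lower with slide as a term, beside the shares of all genes given above (1.52% and 0.742% plain, 2.57% and 1.97% with slide). The list was chosen with earlier results of these data known and includes the member ANXA2R. The counts are therefore no test of the list against all genes. PLAUR, the urokinase receptor, was -1.25, -1.64 and -1.40 in WT, -1.10, -1.34 and -1.16 in F53S, and 2.08, 0.79 and 0.73 in K57N, a difference of 2.63 (adjusted p = 0.00675 plain, 4.94e-04 with slide). PLAU, the protease urokinase that activates plasminogen, was -0.52, -0.99 and -1.10 in WT and 1.86, 0.82 and 0.80 in K57N, a difference of 2.03 (0.0215 plain, 6.29e-05 with slide). The K57N arrays of PLAUR and PLAU lay above all WT arrays, by 3.33 and 2.38 on slide 1 and by 2.28 and 1.85 on slide 2 in the mean.

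MYOF, which encodes the membrane-repair protein myoferlin, was called higher with slide as a term, by 1.59 (adjusted p = 0.0787 plain, 2.46e-04 with slide), being 1.78 on slide 1 and 1.49 on slide 2. The gene counted as lower was TRPV6, a calcium channel whose membrane placement involves S100A10 and annexin A2, at -3.53, -4.24 and -3.62 in WT and -5.24, -5.95 and -6.22 in K57N. Its probe passed the background test on 3 arrays of WT, 2 of F53S and none of K57N, so it entered the test only through WT, where it was high. WT was at least 2.17-fold higher than the background limit of the K57N arrays. F53S was at least 1.85-fold higher on slide 2, where both F53S arrays passed the background test. No more is read from the TRPV6 count. The receptors TLR4, FPR1, FPR2 and FPR3 were not tested. In F53S against WT none of the 16 was called. Against F53S, PLAUR was called higher in K57N in the plain fit, by 2.40 (adjusted p = 0.0167), and PLAU and MYOF were called higher with slide as a term. TRPV6 was counted lower in both fits and is read there too only as the limit above. No gene of the S100 fused-type neighbours, which build the outer layer of skin, was tested among the 7 listed.

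The members that were not tested were S100A6, S100A7, S100A7A, S100A7L2, S100A8, S100A9, S100A12, S100A14, S100B, S100G, S100Z, ANXA10 and ANXA13. For 9 genes no probe was well above background on any array, among them the secreted alarmins S100A7, S100A8, S100A9 and S100A12 and also S100A6, a gene known to be active in many cultured cells. S100B, the glial marker, was above background on 1 F53S array, at -2.45. S100Z was above it on 2 of 3 arrays of each line.

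S100A14, the gene between S100A16 and S100A13, was well above background on 2 of 3 K57N arrays and on no WT or F53S array. Its signal was -4.79, -6.05 and -5.38 in WT, -5.24, -5.35 and -5.08 in F53S, and -4.95, -4.56 and -4.49 in K57N. On slide 1 the K57N array lay below the WT array, and on slide 2 the K57N arrays lay above all WT and F53S arrays. On slide 2 the K57N mean was at least 1.62-fold higher than the WT background limit. Over all 3 K57N arrays, of which 2 passed the background test, this figure was 1.07-fold. ANXA10, an annexin of the stomach, was -6.03, -7.60 and -7.16 in WT and -5.02, -4.80 and -4.60 in K57N, with 1 K57N array well above background, and no fold is given.

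As to the cells themselves, 5 of 6 listed HEK293 genes were well above background on all 9 arrays and NEFM on some. Of these, KRT18 differed between K57N and WT by 0.72 (adjusted p = 0.144 plain, 0.00593 with slide), and LHX1 by 0.99 (0.261 plain, 0.0977 with slide), at 3.92, 4.30 and 2.72 in K57N against 2.57, 2.68 and 2.71 in WT. Of the 9 listed markers of blood, endothelium, fibroblasts and keratinocytes that had a probe, PTPRC, CD14, CDH5, COL1A1 and KRT14 were above it on all arrays, PECAM1 and COL3A1 on some, and DCN and KRT5 on none. The summed linear level of these 9, in units of the 75th percentile of the array, was 1.68 to 3.19 in WT, 1.36 to 2.64 in F53S and 1.11 to 1.35 in K57N. KRT14 was called lower in K57N than WT, with a log2 difference of -2.15 (adjusted p = 0.045 plain, 7.04e-05 with slide), and COL1A1 with slide as a term, at -1.20 (adjusted p = 0.0994 plain, 0.00327 with slide). CD14 was 0.88 higher in K57N (adjusted p = 0.168 plain, 0.049 with slide), and PECAM1 passed the background test on 2 arrays of K57N and none of WT or F53S, with means of -4.16 in K57N and -6.76 in WT. COL3A1 passed it on 2 arrays each of WT and F53S and none of K57N. Their part in the differences of S100A16, S100P, S100A13 and ANXA1 was not tested. In such bulk samples, fewer cells expressing a gene and less RNA per cell cannot be told apart.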

How the data were processed

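Cy3-labelled RNA from 3 HEK293 lines was hybridised to Agilent SurePrint G3 Human 8x60K v2 arrays, 3 per line, described as independent experiments. Per the labels, the authors scanned and extracted intensity values with Agilent Feature Extraction 10.10.1.1. The deposited intensity is the processed signal, already corrected for background by that software. The deposited log2 table of the series, which matched these values up to a constant per array, was used as an alternative.

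From the intensities, log2 signal minus the 75th percentile of each array over non-control spots was computed, spots flagged as non-uniform or population outliers were left out and repeat spots averaged. Probes well above background on all 3 arrays of a line were kept (25400 probes, 19276 genes), and each gene was taken as its probe with the highest mean signal. Line means were compared with limma 3.58.1 in R 4.3.3, with p-values adjusted over all tested probes. Slide was added as a term, because slide barcodes in the file headers place replicate 1 of all lines on one slide and the other replicates on another. Replicate numbers paired the arrays: deviations from the line means correlated at 0.35 to 0.88 between same-numbered arrays of different lines, so a fit with replicate number as a block was also run. No source says what the number marks beyond the slide.

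Named were members called in either fit, the 5 largest differences of each comparison, the members with the 5 highest mean signals, each untested member, and called genes of the partner list and the chromosome 1 neighbours; S100A2, S100A3, S100A4, S100A5, S100A10, the other annexins, the pseudogenes and marker genes were named in addition, with their values seen. Members and lists were chosen with earlier results of these data known. Probe positions are hg19, as in the files, and 39 of 46 member probes were named through RefSeq accessions. ANXA8 and ANXA2R have other names on some arrays. The fits were tested on simulated data. The number of arrays limits the precision.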

Additional observations from a re-analysis of the deposited data

How the results depend on the processing

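For K57N against WT, the plain fit called 1 member higher. Quantile normalization called 2, the replicate block 4, the slide block 4, the arrays of slide 2 alone 4 (S100A16, S100P, S100A13 and S100A14, without ANXA1, whose difference there was 0.96, and with S100A14 entering only through K57N), and the Student's t-test without adjustment 2. Leaving out single arrays gave 1 to 2, the second gene being S100P (adjusted p = 0.0467) without F53S replicate 1. The plain fit called 0 lower, and slide 2 alone called 1, ANXA3. For K57N against F53S, the plain fit called 1 higher, S100A16. This was 0 without the filter on dim probes (adjusted p = 0.0652) and 0 with the Student's t-test adjusted (0.0961). It was 2 without that adjustment, S100A16 and S100A1, the latter with a dim probe that entered the test only through K57N. The replicate block gave 2, the slide block 2 and slide 2 alone 3. Leaving out single arrays gave 0 to 1, with 0 without F53S replicate 2 or F53S replicate 3. With slide as a term, leaving out single arrays was an alternative chosen after seeing the data. For K57N against WT it gave 3 to 5 members higher and 0 to 1 lower. ANXA1 was lost without K57N replicate 1 and S100A13 without K57N replicate 3. The member gained was S100A1, whose dim probe entered the test only through K57N. For K57N against F53S it gave 2 to 3 higher, the gained member being S100A13 or S100A1, and 0 to 1 lower. The counts of 1 lower, of ANXA3, came without WT replicate 1 or K57N replicate 1. For F53S against WT every setting run gave 0. Of 1509 single-gene values under these settings, 1488 kept their side of the call, 4 lost it, 17 gained it and no called value changed sign. Among values called in neither setting, 87, in 21 genes, changed sign, and the largest of these was 0.39 in the plain fit. The cause of these changes was not tested. The median standard error was 0.29 in the plain fit and 0.13 with slide as a term. Dim probes such as S100A1 and S100A14 give little precision.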
